A study of Mus musculus with 6 samples.

Results

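Heat shock chaperones bind newly made or damaged proteins, keep them from clumping and help them to fold, mostly in cycles driven by ATP. The cognate forms are made in nearly all cells at all times, whereas the inducible forms are switched on by heat shock factors when unfolded proteins build up, and these factors bind short repeated units called heat shock elements in the promoters. Macrophages carry both kinds, and heat, oxidants and heavy metals are known to induce some of them. The genes described here were the rows of the count table that carry 10 symbols, namely Hspa1a, Hspa1b, Hsph1, Dnajb1, Hsp90aa1, Hspa8, Hsp90ab1, Hspa5, Hspd1 and Hspe1, and all 10 were found among the 21841 genes of the table. By textbook knowledge, the first 5 were grouped as inducible and the other 5 as constitutive.

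The data were bulk RNAseq of cells sorted by FACS as CD206+LYVE1+ macrophages, within a gate of live CD45+ F4/80+ cells, from breast tumors of FVB/N-Tg(MMTV-PyVT)634Mul/J animals, in which the MMTV promoter drives the polyoma middle T antigen and tumors arise in the mammary glands. The genotype label was WT in both groups, and age is not given in the sources used here. A group of 3 mice received Vehicle, and a group of 3 mice received KCL-HO-1i, an inhibitor of heme oxygenase-1, by intraperitoneal injection at 25 µmol/kg daily for 36 h before the tumors were taken. Tumors of both groups were digested to single cells before sorting, and each library came from a separate mouse. The animal codes in the column names began differently in the vehicle and the KCL-HO-1i mice, so any batch that followed these codes and the treatment cannot be told apart.

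The libraries were shallow, and this limits every value below. Library totals of estimated counts were 206728, 215647 and 338255 for vehicle replicates 1, 2 and 3, against 207812, 319737 and 535224 for KCL-HO-1i replicates 1, 2 and 3. The study's methods word the table as TPM counts, but these totals differ between libraries, whereas TPM values sum to the same total, so the values were read as estimated counts and every count and CPM below rests on that reading. Genes with at least 1 count numbered 15105, 14017 and 17318 under vehicle and 7584, 15148 and 10781 under KCL-HO-1i. Mitochondrially encoded genes took 3.77%, 1.17% and 1.52% of the counts under vehicle and 9.68%, 2.45% and 41.8% under KCL-HO-1i. As a check of the treatment label, Hmox1, the gene of the inhibited enzyme, had 3, 0 and 11 counts under vehicle and 148, 316 and 293 under KCL-HO-1i. Its log2 fold change was 5.69 after TMM scaling (SE 1.15, Benjamini-Hochberg adjusted p = 0.218 in edgeR). When libraries were scaled to macrophage genes it was 1.94 (SE 1.66, Benjamini-Hochberg adjusted p = 0.264 in edgeR). Neither edgeR value is past the threshold, whereas the adjusted p after the usual scaling was 7.31e-06 in DESeq2 and 0.00563 in limma voom. Hmox1 reached the level of the filter on low counts in 0 of the 3 vehicle libraries, so it entered the test through the KCL-HO-1i group.

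The cell type label was checked against 15 general macrophage genes. Their counts summed to 330, 51 and 116 under vehicle and to 1010, 2379 and 2241 under KCL-HO-1i, which was 0.159%, 0.0236% and 0.0342% against 0.486%, 0.744% and 0.419% of each library. The most abundant of them, Lyz2 (lysozyme), had 115, 9 and 33 counts under vehicle and 330, 814 and 781 under KCL-HO-1i. Of the 15 genes, 2, 8 and 4 were at 0 counts under vehicle and 2, 1 and 0 under KCL-HO-1i. Tyrobp, an adaptor of myeloid receptors, had 22, 0 and 0 counts under vehicle and 198, 204 and 124 under KCL-HO-1i. Fcgr3, an Fc receptor, had 0 in each vehicle library and 72, 0 and 106 under KCL-HO-1i, and Mertk, a receptor for dying cells, had 0 in each vehicle library and 0, 11 and 11 under KCL-HO-1i. Not all of the genes had this order, since Cd68, a lysosomal protein of macrophages, had 8, 9 and 8 counts against 0, 14 and 4, and the integrin Itgam had 4, 8 and 5 against 1, 6 and 35. Lyve1, a marker of the sort that is not among the 15, had 22, 8 and 12 counts under vehicle and 8, 38 and 36 under KCL-HO-1i, with overlap in CPM. The vehicle libraries thus held few counts of the genes that define the labelled cell type, so whether they represent sorted macrophages is in doubt, and each comparison below is with libraries labelled vehicle. The chaperone values below stand beside this macrophage share, which was higher in each KCL-HO-1i library than in each vehicle library, and its part in them was not tested. In bulk samples like these, fewer cells of a type and less RNA per cell cannot be told apart. Fold changes are given as KCL-HO-1i over vehicle after TMM scaling, and beside them after scaling each library to the summed general macrophage genes, which shifted the median over the 7263 genes that passed the filter on low counts from -0.52 to -4.50 in log2 fold change. Standard errors of the members tested were 1.38 to 1.82 after macrophage scaling, so the sign of most of these values lay within the error.

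Hspa1a and Hspa1b encode closely related inducible cytosolic Hsp70 proteins from neighbouring genes on chromosome 17 of GRCm38, Hspa1b at 34956436 to 34959238 and Hspa1a at 34969190 to 34972156, both on the minus strand and 9951 bases apart. Each is a single exon in GENCODE M21, and their coding sequences of 1923 and 1926 bases differed at 11 of 1926 aligned positions (99.4% identical). The whole transcripts, with untranslated regions and alignment gaps included, differed at 475 of 3035 aligned positions (84.3% identical). Reads from the shared coding sequence can be split either way by the counting, whereas reads from the differing ends can be told apart, and the share of each kind is not given in the sources used here, so the sum of both genes is given too.

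Hspa1b had 22, 38 and 21 counts under vehicle and 204, 102 and 456 under KCL-HO-1i. In TMM-scaled CPM, which sets counts against the normalized library total, this was 121.2, 196 and 71.7 against 940, 407 and 1637, or 130 ± 62.6 against 995 ± 617 (SD, n = 3 each). Each KCL-HO-1i library stood above each vehicle library, and the KCL-HO-1i libraries themselves were spread widely. Its log2 fold change was 2.93 (standard error, SE, 0.86, Benjamini-Hochberg adjusted p = 0.310 in edgeR), and it was -1.12 after macrophage scaling. With each library left out it ran from 2.44 to 3.59, the highest without vehicle replicate 2.

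Hspa1a had 11, 13 and 13 counts under vehicle and 1, 10 and 25 under KCL-HO-1i. The groups overlapped, with the lowest and the highest library both in the KCL-HO-1i group. Its CPM was 58.1 ± 12.5 under vehicle and 44.2 ± 42.9 under KCL-HO-1i (SD, n = 3 each), and its log2 fold change was -0.35 (SE 1.26, adjusted p = 0.963 in edgeR). After macrophage scaling it was -4.52 (SE 1.82, adjusted p = 0.0246 in edgeR), a scaling under which 5306 of 7263 genes were called. The sign of the small TMM-scaled value was not stable, since it was 0.0066 without vehicle replicate 1, 0.037 without vehicle replicate 2, 0.48 without KCL-HO-1i replicate 1 and -1.10 without KCL-HO-1i replicate 3.

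Hspa1a took 33.6%, 26.0% and 38.2% of the summed Hspa1a and Hspa1b counts under vehicle, and 0.488%, 8.57% and 5.20% under KCL-HO-1i. The share was lower in each KCL-HO-1i library than in each vehicle library. Its two-sided exact permutation p could not fall below 0.1 with 3 mice against 3. The counts assigned to these neighbours thus did not keep a fixed proportion. In no library was Hspa1a above the 95th percentile of the receptor gene background described below, so these shares rest on few Hspa1a counts. The sum of both genes was 33, 51 and 34 counts under vehicle and 205, 111 and 481 under KCL-HO-1i, again without overlap. Its log2 fold change was 2.46 (SE 0.83, Benjamini-Hochberg adjusted p = 0.377 in edgeR), whereas per 1000 counts of the general macrophage genes the sum was 99.1, 1005 and 294 under vehicle and 203, 46.9 and 215 under KCL-HO-1i, with overlap.

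Hspa8 on chromosome 9 (40800984 to 40810087, plus strand) encodes Hsc70, the constitutive cytosolic Hsp70 that also serves in uncoating clathrin and in autophagy. It had 42, 14 and 4 counts under vehicle and 201, 581 and 328 under KCL-HO-1i. In CPM this was 235, 71.6 and 15.1 against 926, 2322 and 1179, or 107 ± 114 against 1476 ± 744 (SD, n = 3 each). All KCL-HO-1i libraries were above all vehicle libraries, and vehicle replicate 1 held most of the vehicle counts. The log2 fold change was 3.79 (SE 1.08, Benjamini-Hochberg adjusted p = 0.298 in edgeR) and 0.46 (SE 1.53) after macrophage scaling, where Hspa8 was the sole tested member with a value above 0, by less than its standard error. Without vehicle replicate 1 the same test called Hspa8, with a log2 fold change of 5.39 and an adjusted p of 0.0475, while over the 6 libraries left out in turn the adjusted p ran from 0.0475 to 0.809.

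The ratio of the inducible Hsp70 counts (Hspa1a plus Hspa1b) to Hspa8 counts does not depend on library scaling. It was 0.776, 3.70 and 7.69 under vehicle and 1.02, 0.192 and 1.46 under KCL-HO-1i. The groups overlapped through vehicle replicate 1, and the vehicle ratios in replicates 2 and 3 rested on 14 and 4 Hspa8 counts.

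Hsp90aa1 and Hsp90ab1 encode the cytosolic Hsp90 chaperones, which hold kinases and steroid receptors in an activatable form, Hsp90aa1 being the stress-inducible and Hsp90ab1 the constitutive form. Hsp90aa1 (chromosome 12, 110690605 to 110702728, minus strand) had 31, 7 and 47 counts under vehicle and 279, 295 and 399 under KCL-HO-1i. Its CPM was 172, 34.6 and 159 against 1285, 1179 and 1432, or 122 ± 75.9 against 1299 ± 127 (SD, n = 3 each). These were the most even KCL-HO-1i values of the 10 genes relative to their mean, and they lay well clear of the vehicle libraries. The log2 fold change was 3.39 (SE 0.87, Benjamini-Hochberg adjusted p = 0.293 in edgeR) and -0.14 after macrophage scaling.

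Hsp90ab1 (chromosome 17, 45567775 to 45573271, minus strand) had 10, 8 and 9 counts under vehicle and 31, 66 and 184 under KCL-HO-1i. Its CPM was 55.9, 41.4 and 32.1 against 143, 264 and 660, or 43.1 ± 12 against 356 ± 271 (SD, n = 3 each). The vehicle libraries were close to each other, and all KCL-HO-1i libraries lay above them. Its log2 fold change was 3.05 (SE 0.89, adjusted p = 0.310 in edgeR) and -0.86 after macrophage scaling, and it was 3.74 without KCL-HO-1i replicate 1 and 2.43 without KCL-HO-1i replicate 3. The count ratio of Hsp90aa1 to Hsp90ab1 was 3.08, 0.837 and 4.96 under vehicle and 8.99, 4.47 and 2.17 under KCL-HO-1i, so the balance of the inducible and the constitutive form overlapped between the groups.

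**Figure D1:**
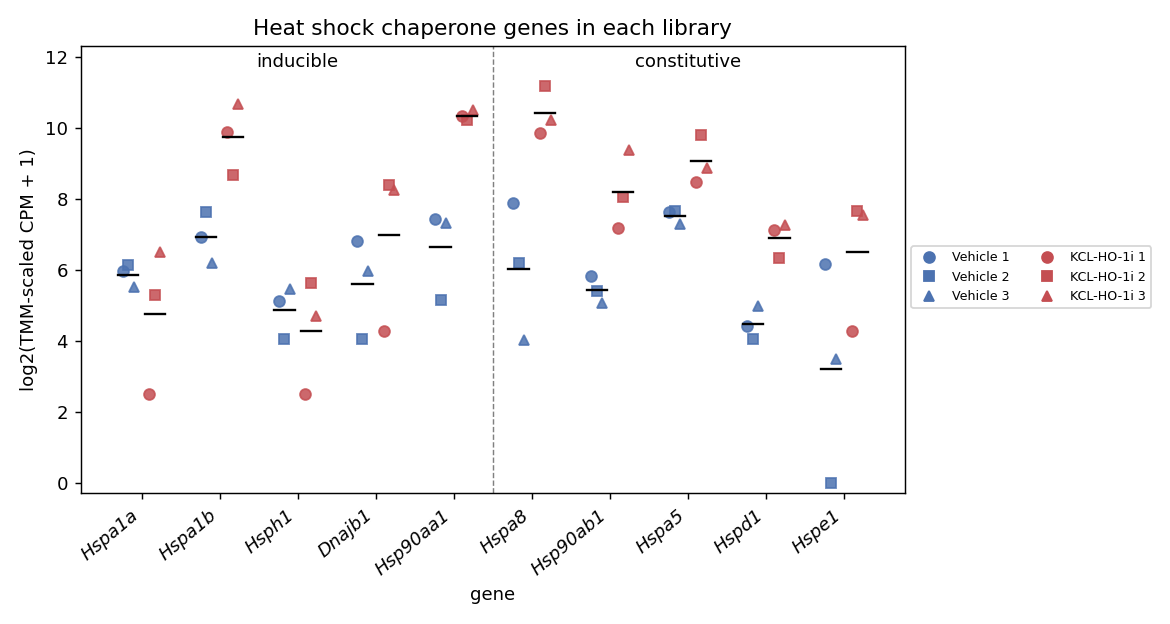
Each point is a library, with log2(TMM-scaled CPM + 1) on the vertical axis and the 10 heat shock chaperone genes on the horizontal axis; black bars are means over 3 libraries. Hspa1b, Hsp90aa1, Hspa8, Hsp90ab1, Hspa5 and Hspd1 had all KCL-HO-1i libraries above all vehicle libraries, a separation that none of these genes kept per macrophage gene count.

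Dnajb1 and Hsph1 assist Hsp70. Dnajb1 (chromosome 8, 83608193 to 83612653, plus strand) encodes an inducible Hsp40 that delivers clients and stimulates the ATPase of Hsp70, and it had 20, 3 and 18 counts under vehicle and 4, 84 and 85 under KCL-HO-1i. KCL-HO-1i replicates 2 and 3 were above all vehicle libraries, but KCL-HO-1i replicate 1 lay among the vehicle values, with 18.4 CPM against 15.5 to 112. The log2 fold change was 1.80 (SE 1.12, Benjamini-Hochberg adjusted p = 0.803 in edgeR) and -1.83 after macrophage scaling, and it was 2.78 without vehicle replicate 1 and 2.63 without KCL-HO-1i replicate 1.

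KCL-HO-1i replicate 1 thus had many Hspa1b counts and few of Dnajb1, with 1.95 Dnajb1 counts per 100 counts of Hspa1a plus Hspa1b. The same ratio was 75.4 and 17.7 in KCL-HO-1i replicates 2 and 3 and 61.2, 5.86 and 52.9 in the vehicle libraries. The ratio of these members, which are usually induced together, thus varied within either group. It rested on only 20, 3 and 18 Dnajb1 counts under vehicle and on 4 in KCL-HO-1i replicate 1.

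Hsph1 (chromosome 5, 149614287 to 149636376, minus strand) encodes Hsp105, a nucleotide exchange factor of Hsp70 that is also heat-inducible. It had 6, 3 and 12 counts under vehicle and 1, 12 and 7 under KCL-HO-1i, and it was the sole member that did not pass the filter on low counts. The groups overlapped fully, and a difference was not detectable at this depth. With no filter, its log2 fold change was 0.02 (SE 1.81, adjusted p = 0.999 in edgeR), and -0.11 in DESeq2. It passed the filter when certain libraries were left out, with a value of 0.15 without vehicle replicate 1, -0.27 without vehicle replicate 2 and 0.55 without KCL-HO-1i replicate 1.

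Hspa5 encodes BiP, the Hsp70 of the endoplasmic reticulum and a common readout of the unfolded protein response. On chromosome 2 (34771970 to 34777547, plus strand), it had 35, 39 and 45 counts under vehicle and 77, 223 and 130 under KCL-HO-1i. Its CPM was 196, 200 and 155 against 355, 891 and 467, or 184 ± 24.8 against 571 ± 283 (SD, n = 3 each). Its vehicle libraries were nearly level, and the lowest KCL-HO-1i library was above the highest of them. Its log2 fold change was 1.63 (SE 0.74, Benjamini-Hochberg adjusted p = 0.619 in edgeR) and -2.45 after macrophage scaling.

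Hspd1 and Hspe1 encode the mitochondrial chaperonin Hsp60 and its lid Hsp10, and they are transcribed in opposite directions from a shared promoter on chromosome 1. In GENCODE M21, Hspd1 lies at 55077835 to 55088243 on the minus strand and Hspe1 at 55088132 to 55091307 on the plus strand, so 112 bases overlap. The library kit keeps the strand, but whether the counting used it is not given in the sources used here, so reads in the overlap are uncertain. Hspd1 had 4, 3 and 9 counts under vehicle and 30, 20 and 42 under KCL-HO-1i, or 22.2 ± 7.77 against 123 ± 37.8 CPM (SD, n = 3 each). Hspe1 had 13, 0 and 3 counts under vehicle and 4, 50 and 52 under KCL-HO-1i, or 26.9 ± 38.1 against 135 ± 101 CPM (SD, n = 3 each). Hspd1 did not overlap between the groups, whereas Hspe1 did, because KCL-HO-1i replicate 1 lay between vehicle replicates 1 and 3. The log2 fold change of Hspd1 was 2.39 (SE 1.05, Benjamini-Hochberg adjusted p = 0.595 in edgeR) and -1.34 after macrophage scaling. For Hspe1 it was 2.30 (SE 1.44, adjusted p = 0.804 in edgeR), -0.60 after macrophage scaling, 4.77 without vehicle replicate 1 and 3.10 without KCL-HO-1i replicate 1.

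Across the table, edgeR's quasi-likelihood test called 0 of 7263 genes (0% of those tested) at an adjusted p under 0.05 and an absolute log2 fold change above 0.6, and 0 of the 9 members tested. At an unadjusted p under 0.05, 6 members were higher under KCL-HO-1i (Hspa1b, Hsp90aa1, Hspa8, Hsp90ab1, Hspa5 and Hspd1) against 5.01% of all genes tested, and 586 genes passed in either direction. That last number was 387 without vehicle replicate 3, 1122 without KCL-HO-1i replicate 1 and 1419 without KCL-HO-1i replicate 2, and without vehicle replicate 1 the count at the adjusted threshold was 74. Of the 6 members, Hsp90aa1, Hsp90ab1, Hspa1b and Hspa8 stayed under 0.05 with each of the 6 libraries left out in turn. Hspa5 and Hspd1 did not, since both were lost without vehicle replicate 2 or 3 (4 members left), Hspd1 also without vehicle replicate 1 or KCL-HO-1i replicate 3, and Hspa5 also without KCL-HO-1i replicate 2. Their log2 fold changes were not smaller without vehicle replicate 2 or 3 (1.93 and 1.74 for Hspa5, 2.41 and 2.88 for Hspd1). Leaving out a library cannot undo a complete separation in CPM, so this does not test theirs. Other members were gained, Hspe1 without vehicle replicate 1, and Dnajb1 and Hspe1 without KCL-HO-1i replicate 1. In that last fit 8 of 10 members tested passed, beside 1122 of 10294 genes in either direction, and 8 were without overlap in CPM. The share of all genes without overlap in those libraries was not computed, so the latter count has no baseline. With no filter on low counts, the unadjusted p in edgeR was 0.0596 for Hspd1 and 0.0643 for Hspa5. With all libraries kept, the 6 members first named had every KCL-HO-1i library above every vehicle library in CPM. This held for 7.88% of the genes tested, and per macrophage gene count none of the 6 had that order. For each of these 6 the two-sided exact permutation p was 0.1, the smallest that 3 mice against 3 allow.

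Other tools called some members at the same thresholds. DESeq2 on the filtered genes called 236 genes and 4 members, Hsp90aa1, Hsp90ab1, Hspa1b and Hspa8, all higher under KCL-HO-1i, against 2.26% of genes called higher. Their adjusted p-values from DESeq2 were 0.00200 for Hsp90aa1, 0.00825 for Hspa8, 0.0211 for Hspa1b and 0.0270 for Hsp90ab1. The limma voom fit with sample quality weights called 299 genes and the same 4 members, against 4.03% of genes called higher, while DESeq2 without a filter called 184 genes, among them Hsp90aa1 and Hspa8. After macrophage scaling, the log2 fold changes of these 4 were 0.46 (SE 1.53) for Hspa8, -0.14 (SE 1.5) for Hsp90aa1, -0.86 (SE 1.61) for Hsp90ab1 and -1.12 (SE 1.5) for Hspa1b, each less than its standard error from 0.

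The filter itself bears on these counts, which is set on CPM of library totals before TMM scaling. On that scale Hspd1 reached the level of 37.4 CPM in 0 of the 3 vehicle libraries, and Hsp90ab1 and Hspe1 reached it in 1. Those genes entered the test mainly through the group in which they were higher. With no filter, the median log2 fold change of all 10 members was 2.55, against -0.52 over the 19518 genes with any count. Among the 9 tested it was 2.39 after TMM scaling, beside -0.52 for all genes tested, and -1.12 after macrophage scaling, beside -4.50.

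Both classes had higher sums in each KCL-HO-1i library than in each vehicle library. The 5 inducible genes summed to 500, 330 and 380 CPM under vehicle and 2252, 2008 and 3488 CPM under KCL-HO-1i, a mean of 403 ± 87.2 against 2583 ± 794 (SD, n = 3 each). The 5 constitutive genes summed to 577, 329 and 243 CPM under vehicle and 1580, 3756 and 2643 CPM under KCL-HO-1i, a mean of 383 ± 174 against 2660 ± 1088 (SD, n = 3 each). Mean sums were thus 6.41 times higher under KCL-HO-1i for the inducible genes and 6.94 times higher for the constitutive genes, and under macrophage scaling both classes had medians below 0 (-1.47 and -0.86). By single members, 2 of 5 inducible and 4 of 5 constitutive genes were without overlap in CPM, and this difference between the classes was not tested. It came from Hspa5 and Hspd1. Leaving out a library cannot undo such a separation, so this does not test it. Without KCL-HO-1i replicate 1, the inducible Dnajb1 and the constitutive Hspe1 were without overlap too, in libraries for which the share over all genes was not computed. By unadjusted p under 0.05 there was no such difference without a filter or without vehicle replicate 2 or 3, where 2 inducible and 2 constitutive genes passed. Hspa1b and Hsp90aa1 held 483 of 489, 397 of 503 and 855 of 972 inducible counts under KCL-HO-1i, and without them the inducible sum was 207, 99.7 and 148 CPM under vehicle and 27.7, 422 and 420 under KCL-HO-1i, with overlap. The inducible share of the member counts, which no scaling changes, was 46.4%, 50.1% and 60.9% under vehicle and 58.8%, 34.8% and 56.9% under KCL-HO-1i. It overlapped between the groups, and its lowest value came from KCL-HO-1i replicate 2, the library with the most Hspa8.

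Set against the general macrophage genes, the 10 members had 585, 2502 and 1579 counts per 1000 macrophage gene counts under vehicle and 824, 606 and 762 under KCL-HO-1i. The KCL-HO-1i libraries lay close together and inside the vehicle range. The vehicle values were uneven, and the highest rested on 51 macrophage gene counts in vehicle replicate 2. On this scale Hspa8 had 128, 272 and 38.2 counts per 1000 under vehicle and 199, 244 and 147 under KCL-HO-1i, and Hsp90aa1 had 93.4, 131 and 404 against 276, 124 and 178. Both overlapped. Hspa1a, Hsph1, Dnajb1 and Hspa5 were below every vehicle library in each KCL-HO-1i library on this scale, the reverse of the order of Hspa5 in CPM. Low values were common on it, since 2.95% of the genes tested had a log2 fold change above 0 and 5297 of 7263 were called lower. The share of all genes below every vehicle library was not computed, so this order is not read as particular to these members.

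**Figure D2:**
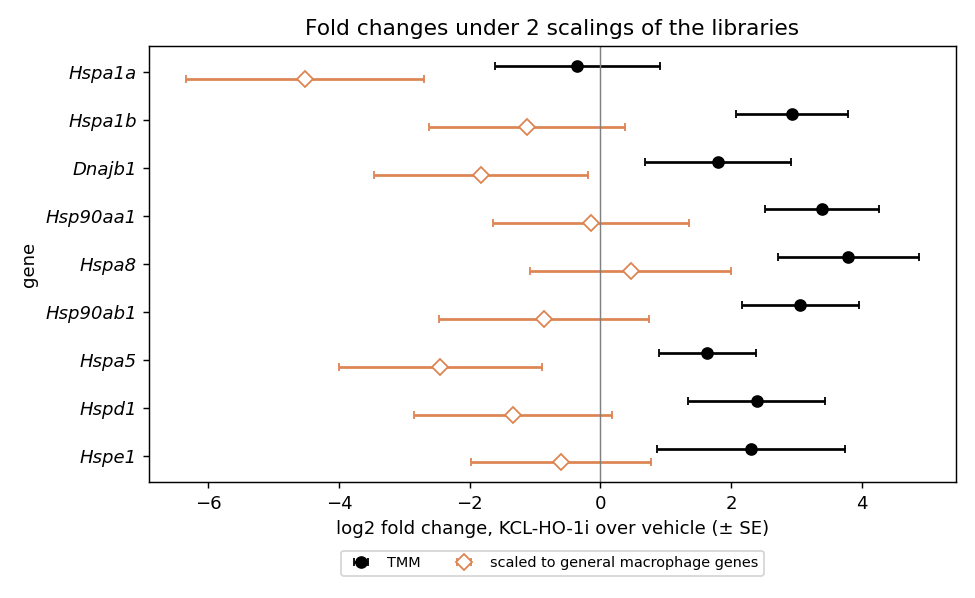
Log2 fold change of KCL-HO-1i over vehicle with its standard error for the 9 members tested (horizontal axis), after TMM scaling (black circles) and after scaling to 15 general macrophage genes (open diamonds). After TMM scaling 8 of 9 lay above 0, and after macrophage scaling Hspa8 alone did (0.46, SE 1.53).

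**Figure D3:**
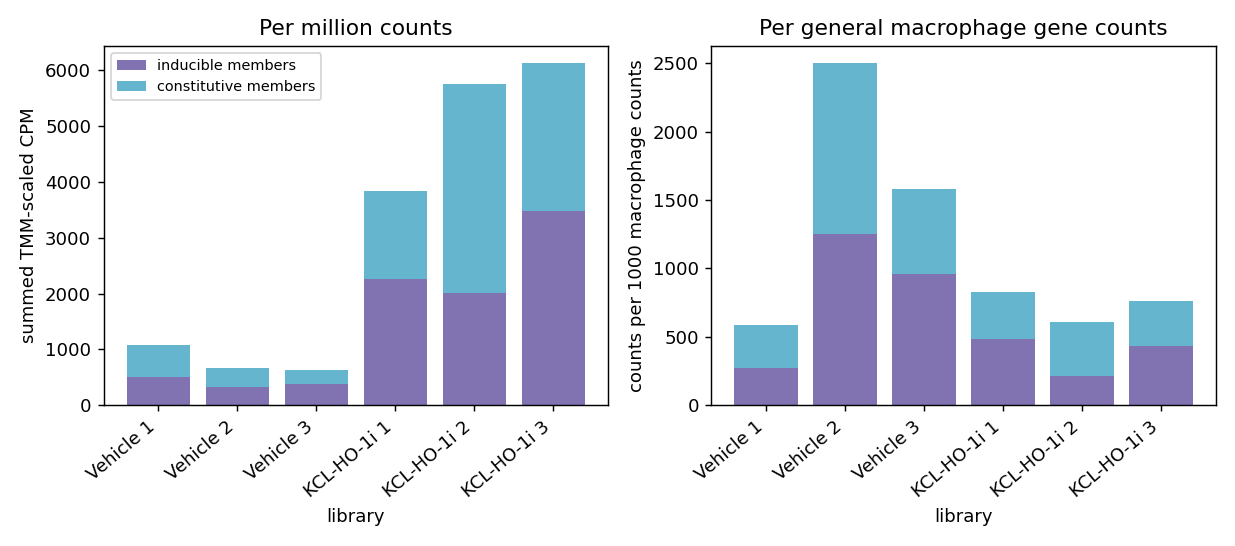
Summed level of the 5 inducible and 5 constitutive members in each library (stacked bars), as TMM-scaled CPM on the left and as counts per 1000 counts of the 15 general macrophage genes on the right. All KCL-HO-1i libraries exceeded all vehicle libraries on the left, and on the right they lay at 606 to 824, within the vehicle range of 585 to 2502.

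Levels of different genes were compared as CPM per kb of the longest GENCODE transcript. Under KCL-HO-1i, Hspa8 (467 ± 236), Hsp90aa1 (396 ± 38.7) and Hspa1b (355 ± 220 CPM per kb, SD, n = 3) led. They were followed by Hspa5, Hsp90ab1 and Hspe1 at 155, 141 and 140 CPM per kb, then Dnajb1 at 73.3, Hspd1 at 50.7, Hspa1a at 14.9 and Hsph1 at 5.43. Between neighbours in this order, the gap in CPM per kb exceeded the larger SD solely between Hspd1 and Hspa1a. Under vehicle the levels were compressed, from 50.02 ± 6.75 CPM per kb for Hspa5 to 6.41 ± 2.90 for Hsph1 (SD, n = 3), and solely the step from Hsp90ab1 (17.1) to Hspd1 (9.16) exceeded the larger SD. The constitutive Hspa8 had rank 4 in this order under vehicle, at 34.0 ± 36.2 CPM per kb, and rank 1 under KCL-HO-1i.

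Receptor genes of sensory neurons were read as a background for these levels. Among 1471 olfactory and vomeronasal receptor genes, the 95th percentile of counts per kb was 7.43, 7.99 and 9.47 under vehicle and 8.89, 6.55 and 9.32 under KCL-HO-1i. The median of these genes was 1.99, 1.61 and 3.91 counts per kb under vehicle and 0, 1.31 and 0.24 under KCL-HO-1i, and the lowest vehicle value was above the highest KCL-HO-1i value. The part of this background in the chaperone values was not tested. Under vehicle, 5, 2 and 2 of the 10 members were above it in counts per kb, and Hspa5 was the member above it in each vehicle library. Those members held 142 of 193, 77 of 127 and 92 of 182 chaperone counts of the vehicle libraries. Under KCL-HO-1i, 6, 8 and 8 members were above the 95th percentile. Hspa1a and Hsph1 were above it in no library of either group. Against the receptor median, 8, 6 and 5 members were higher in the vehicle libraries.

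The other chaperone and stress genes were read from 8 lists of 80 genes, of which 34 passed the filter. Of these, 24 had a log2 fold change above 0 and 10 below, with a median of 0.74 beside -0.52 for all genes tested. After macrophage scaling 1 was above 0 and 33 below. Of all genes tested, 32.6% were above 0 after TMM scaling and 2.95% after macrophage scaling. These shares also stand beside the counts above 0 of each list below. Single genes and sums named below as lower in each KCL-HO-1i library stand without a share over all genes, which was not computed for that order. EdgeR called 0 of the 34 at the adjusted threshold, and 6 were higher and 1 lower at an unadjusted p under 0.05, beside 5.01% higher and 3.06% lower of all genes tested. Of these 6, Cct8 and Hspa9 stayed below the level of the filter, 37.4 CPM of library totals, in each vehicle library. They entered the test through the KCL-HO-1i group, in which they were higher.

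Among 15 chaperones of the endoplasmic reticulum, the compartment of Hspa5, 9 were tested and 8 were above 0 (median 1.80), against 1 after macrophage scaling. Over all 15, fitted without the filter, the median was 1.3. Hyou1, a relative of Hsp70, had 14, 12 and 11 counts under vehicle and 4, 2 and 0 under KCL-HO-1i. The disulfide isomerase Pdia4 had 3, 3 and 4 against 0, 3 and 0. Both untested genes were lower in each KCL-HO-1i library in CPM, but their counts were low. The share of all genes with that order was not computed, so it is not read as a result about them. The gene above 0 after macrophage scaling was Hsp90b1, which encodes the Hsp90 of this compartment, with 8, 1 and 0 counts under vehicle and 126, 131 and 420 under KCL-HO-1i (log2 fold change 5.75, SE 1.33, adjusted p = 0.249 in edgeR, and 3.02 after macrophage scaling). Canx, a lectin chaperone, had 37, 11 and 32 counts against 81, 137 and 236, and Dnajb9, an Hsp40 partner of BiP, had 1, 21 and 16 against 87, 46 and 91. Both were without overlap in CPM, and Manf, a secreted stress factor, overlapped, with 26, 31 and 34 against 0, 100 and 20. Genes of the unfolded protein response were mixed, with 2 of 4 tested above 0 after TMM scaling (Atf4 and Herpud1) and 0 after macrophage scaling. Atf4 had 11, 16 and 6 counts against 9, 79 and 71, Herpud1 7, 4 and 15 against 12, 38 and 10, Atf6 27, 24 and 38 against 0, 17 and 70, and Ern1 31, 11 and 25 against 3, 19 and 25.

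Of 21 cytosolic cochaperones and relatives of Hsp70, 11 were tested and 8 were above 0 (median 0.59), with 0 above 0 after macrophage scaling. Bag3, an inducible nucleotide exchange factor, had 4, 0 and 20 counts under vehicle and 32, 16 and 71 under KCL-HO-1i, and Dnaja1, an Hsp40, had 49, 0 and 69 against 26, 83 and 189. Dnajb6 had 19, 12 and 35 against 19, 34 and 59. All 3 overlapped between the groups in CPM, and Hspa4l, a relative of Hsph1, was lower in each KCL-HO-1i library (22, 61 and 55 against 8, 13 and 27 counts, log2 fold change -1.74).

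Of 10 cochaperones of Hsp90, 6 were tested and 4 were above 0 (median 0.97), with 0 above 0 after macrophage scaling. Ptges3, the cochaperone p23, had 6, 12 and 10 counts under vehicle and 122, 57 and 93 under KCL-HO-1i, without overlap, and Cdc37, which brings kinases to Hsp90, went the other way with 37, 34 and 45 against 0, 16 and 0. Sugt1 had 22, 0 and 28 against 81, 14 and 56, and Chordc1 had 4, 24 and 13 against 0, 12 and 58. The cofactors of Hsp90 were therefore not uniformly higher where Hsp90aa1 and Hsp90ab1 were.

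In mitochondria, where Hspd1 and Hspe1 act, 3 of 8 other chaperones and proteases were tested, with 1 above 0 (median -0.71) and 0 after macrophage scaling. Hspa9, the mitochondrial Hsp70, had 1, 6 and 12 counts under vehicle and 15, 22 and 81 under KCL-HO-1i, without overlap in CPM. Its exchange factor Grpel2 was lower in each KCL-HO-1i library, with 48, 87 and 70 against 18, 14 and 0 counts. Grpel1 had 15, 10 and 36 against 0, 35 and 5, Clpx had 3, 1 and 15 against 0, 13 and 6, and Lonp1 was at 0 in all 6 libraries.

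The 8 genes of the cytosolic chaperonin CCT, which folds actin and tubulin, summed to 26, 16 and 11 counts under vehicle and 59, 175 and 229 under KCL-HO-1i. Cct8 was the sole one tested, with 0, 8 and 1 counts against 44, 12 and 93 and a log2 fold change of 3.69 (-0.70 after macrophage scaling). Cct4 had 0, 3 and 1 against 12, 6 and 59, Cct2 0, 0 and 0 against 0, 68 and 31, and Tcp1 15, 1 and 7 against 0, 44 and 5. None of 9 small heat shock proteins passed the filter, and their sum was lower in each KCL-HO-1i library, at 134, 137 and 212 CPM under vehicle and 32.3, 81.4 and 35.3 under KCL-HO-1i. Hspb1, an inducible one, had 6, 0 and 8 counts against 0, 4 and 9. Hspb3 had 4, 8 and 9 against 0, 9 and 0, Hspb7 9, 0 and 16 against 4, 0 and 0, and Hspb8 2, 4 and 15 against 2, 5 and 1. The heat shock factors were nearly undetected, Hsf1 at 0, 0 and 2 and Hsf2 at 3, 0 and 5 counts under vehicle, and both at 0 in every KCL-HO-1i library.

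Immediate-early genes, which respond within minutes to many stimuli, were read beside the chaperones. The 12 genes of this list summed to 1803, 604 and 598 CPM under vehicle and 6005, 5715 and 10457 CPM under KCL-HO-1i, and 11 of 11 tested were above 0 (median 2.27), with 4 of 11 above 0 after macrophage scaling (median -1.35). EdgeR called 0 of them at the adjusted threshold, and 5 were higher at an unadjusted p under 0.05, beside 5.01% of all genes tested. The most abundant, Dusp1, had 28, 2 and 0 counts against 433, 257 and 746. Whether these genes and the chaperones varied together was not tested.

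Markers of perivascular tumor macrophages, the type that the sort was aimed at, and of other cell types were read in the same libraries. Of 8 markers of perivascular tumor macrophages, 7 were tested and all 7 were above 0, with 3 above 0 after macrophage scaling. Among the 8 was Mrc1, which is also a general macrophage gene. Timd4, with 3, 6 and 7 vehicle counts, stayed below the level of the filter in each vehicle library. It entered the test through the KCL-HO-1i group, in which it was higher. The sums of the 8 were 611, 107 and 306 CPM against 1706, 2819 and 2826. F13a1 was the most abundant, with 15, 7 and 37 counts against 188, 227 and 493. Of 10 epithelial tumor markers, 3 were tested and 3 were above 0 (2 after macrophage scaling), and their sums were 637, 186 and 268 CPM under vehicle and 2447, 978 and 2099 CPM under KCL-HO-1i. The most abundant of them, Wfdc18, a secreted mammary protein, had 45, 0 and 8 counts against 235, 104 and 387, and Csn3, a milk casein, had 39, 1 and 18 against 244, 79 and 176. The other 8 epithelial markers summed to 168, 181 and 179 CPM under vehicle and 240, 247 and 79.0 under KCL-HO-1i, with overlap. Among them Epcam, which defines epithelial cells, had 5, 0 and 0 counts against 0, 4 and 9, and Cdh1, the epithelial cadherin, was lower in each KCL-HO-1i library, with 5, 12 and 13 against 0, 3 and 0. All 6 keratins of the list overlapped between the groups. Mean CPM was lower under KCL-HO-1i for the basal Krt5 (9.42 against 2.66) and Krt14 (20.7 against 14.6), and higher for the luminal Krt7 (52.0 against 70.7), Krt8 (25.9 against 33.7), Krt18 (8.0 against 39.9, from 1 library) and Krt19 (5.72 against 6.66). The sum of the perivascular list and that of Wfdc18 and Csn3 were higher in each KCL-HO-1i library than in each vehicle library, as the summed chaperones were. Epithelial cells lack CD45 and F4/80, by which the sort was gated, and the part of these lists in the chaperone values was not tested.

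The sums of the remaining lists did not have that order. The 8 endothelial markers, with Egfl7 at 0 in all libraries, summed to 400, 233 and 450 CPM against 64.5, 289 and 180, and their most abundant gene Prox1 had 15, 10 and 64 counts against 3, 40 and 21. The 8 fibroblast markers summed to 324, 300 and 355 CPM against 69.1, 99.3 and 208 (Pdgfra with 32, 50 and 45 counts against 10, 1 and 32). The 7 T and NK cell markers in the table summed to 69.6, 144 and 128 CPM against 111, 108 and 64.6 (Cd8a with 4, 12 and 16 counts against 20, 12 and 0). The 4 B cell markers summed to 89.4, 33.9 and 47.3 CPM against 45.0, 72.4 and 4.17 (Ms4a1 with 8, 5 and 10 counts against 10, 12 and 1). Of these 6 tested genes in the 4 lists, 0 were above 0 in log2 fold change. Neutrophil markers, none tested, summed to 61.5, 46.5 and 52.0 CPM against 9.22, 39.95 and 206 (Csf3r with 6, 0 and 13 counts against 2, 7 and 17). Erythroid markers, none tested and with Hba-a2 at 0 in all libraries, summed to 39.1, 0 and 3.41 CPM against 7.96, 669 and 71.8, and Hba-a1 had 86 counts in KCL-HO-1i replicate 2, the library with the most Hspa8.

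The genes outside all lists whose centred log2 CPM over the 6 libraries lay nearest to the mean pattern of the 9 members that passed the filter were Lamp2, Rplp0, Klf4, Atp5md and Dab2, at Euclidean distances of 0.56, 0.60, 0.61, 0.61 and 0.74. Lamp2, a lysosomal membrane protein, had 28, 12 and 17 counts under vehicle and 50, 132 and 123 under KCL-HO-1i. Rplp0, a ribosomal protein, had 14, 4 and 11 against 27, 66 and 70, and Klf4, a transcription factor, had 33, 23 and 23 against 74, 199 and 326. Their log2 fold changes were 2.12, 2.22, 2.59, 2.20 and 2.21 in the order named, and all 5 had each KCL-HO-1i library above each vehicle library in CPM, which their choice by pattern over the same libraries largely sets.

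Promoter windows from RefSeq on GRCm38.p6, each 250 bases before and 50 bases after a start, were given for 7 of the 10 members in 10 windows, and for Hspa8, Hsp90aa1 and Hsp90ab1 none was given. Each window was searched for the paired heat shock units GAANNTTC and TTCNNGAA, which read the same on both strands, and for the triple unit, which extends a pair by 1 more alternating unit and so overlaps both pairs. The box TATAAA was searched on both strands, and so was the box CCAAT. A match is a description of the letters and not a site. Among all 32851 windows, 7.86% held GAANNTTC, 8.52% held TTCNNGAA, 15.1% held either pair, 0.603% held a triple, 13.6% held TATAAA and 37.4% held CCAAT.

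A pair was found in windows of 5 members, Hspa1a, Hspa1b, Hsph1, Hspd1 and Hspe1, and a triple in windows of 3, Hsph1, Hspd1 and Hspe1. No window of Dnajb1 or Hspa5 held a pair, and TATAAA was in none of the 10 windows. On either strand, CCAAT occurred 4 times in the Hspa5 window, 1 time each for Hspa1a and Hspa1b, 2 times in each Hsph1 window and in 1 Dnajb1 window, 1 time in a Hspd1 window and 0 times for Hspe1. Among the members with a window, the triples did not follow the class, since the constitutive Hspd1 and Hspe1 held them and the inducible Hspa1a, Hspa1b and Dnajb1 did not.

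The windows of Hspa1a (chr17:34972107-34972406, minus strand) and Hspa1b (chr17:34959189-34959488, minus strand) are shown because the counts of these neighbours differed while their promoters hardly do. They were identical at 296 of 300 positions, and the differences from Hspa1a to Hspa1b were C44T, T47C, T249G and C276T, counted from 1 at the 5′ end of the window. Capitals mark GAANNTTC, which begins 104 bases before the start in both.
Hspa1a: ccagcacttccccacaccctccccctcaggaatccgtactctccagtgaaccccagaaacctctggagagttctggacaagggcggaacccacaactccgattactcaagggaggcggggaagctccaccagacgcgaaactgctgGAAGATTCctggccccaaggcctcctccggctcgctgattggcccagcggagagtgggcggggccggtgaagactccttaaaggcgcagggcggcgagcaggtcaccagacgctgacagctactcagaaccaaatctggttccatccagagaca
Hspa1b: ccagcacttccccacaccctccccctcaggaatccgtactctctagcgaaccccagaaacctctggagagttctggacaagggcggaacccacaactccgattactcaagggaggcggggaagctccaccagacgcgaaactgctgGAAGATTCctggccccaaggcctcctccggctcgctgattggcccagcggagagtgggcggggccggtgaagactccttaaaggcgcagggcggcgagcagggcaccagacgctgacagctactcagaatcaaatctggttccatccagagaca

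The shared promoter of Hspd1 and Hspe1 is shown because this pair of genes is read from it in both directions. The stretch chr1:55088039-55088096 lies in the Hspe1 window on the plus strand and in a Hspd1 window on the minus strand, and each line is the reverse complement of the other. Capitals mark the overlapping pairs of heat shock units, which together hold 2 overlapping triples.
Hspe1: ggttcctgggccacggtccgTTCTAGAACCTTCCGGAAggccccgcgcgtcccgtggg
Hspd1: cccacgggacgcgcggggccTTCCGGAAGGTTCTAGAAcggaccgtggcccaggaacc
Hspd1 had all KCL-HO-1i libraries above all vehicle libraries in CPM and Hspe1 had 2 of 3, and neither order held after division by macrophage gene counts.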

How the data were processed

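The values the authors deposited for 6 libraries, 3 Vehicle and 3 KCL-HO-1i, were read as estimated counts per gene, because library totals differed and most nonzero values were whole (8.50% to 24.3% per library were not, at a tolerance of 0). The methods word them as TPM counts, and this was not settled. The submitters' processing notes name FastQC 0.11.9, STAR 2.7.9a, Salmon 1.9.0, DESeq2 and mm10, and the study's methods add tximport sums to genes. The annotation is not given in the sources used here.

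After rounding to whole numbers, genes were kept by filterByExpr at a minimum count of 10 and a minimum total of 15. Libraries were scaled with TMM, and edgeR 4.0.16 (R 4.3.3) fitted all genes by quasi-likelihood with treatment as the single term. A standard error is the log2 fold change over the square root of F. DESeq2 1.42.0 and limma 3.58.1 were alternatives, as were other scalings, filters and thresholds, the Hspa1a and Hspa1b sum, thinned counts and each library left out. CPM used unrounded counts. Positions and transcript lengths came from GENCODE M21 (GRCm38), alignments from Biopython 1.88.

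The genes named were the 10 members, Hmox1, up to 4 genes of highest mean CPM in each other chaperone list, the most abundant gene of each cell type list, and the 5 genes outside the lists nearest to the members' pattern. Canonical stress, chaperone and cell type lists served for description. Epcam, Csn3, Cdh1, the keratins, Fcgr3, Mertk, Tyrobp, Cd68, Itgam, Lyve1, Hyou1, Pdia4, Lonp1, Egfl7 and Hba-a2 were named after their values were seen, as was Dusp1 of the immediate-early list. The members and lists were chosen with earlier results of these data known. The olfactory and vomeronasal receptor genes, and the sums without Csn3 and Wfdc18 or without Hspa1b and Hsp90aa1, were added after the data were seen.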

Additional observations from a re-analysis of the deposited data

How the results depend on the processing

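The number of genes called by edgeR was 0, and it became 184 with DESeq2 without a filter, 236 with DESeq2 on the filtered genes, 299 with limma voom, 82 with no filter on low counts, 67 with at least 10 counts in every library, 5306 with libraries scaled to the general macrophage genes, 586 at an unadjusted p under 0.05, and 0 to 74 with each library left out. In the same order the members called were 2, 4, 4, 0, 1 (Hspa1b), 1 (Hspa1a, lower), 6 and 0 to 1, and the cause was not tested. RLE normalization, library totals, omission of mitochondrially encoded genes, thinned counts, the Hspa1a and Hspa1b sum and no fold change threshold left both counts at 0 where they applied. The numbers tested differed between fits. Macrophage scaling called 5306 of 7263 genes and 1 of 9 members. At least 10 counts in every library gave 67 of 948 genes and 1 of 2 members. Leaving out vehicle replicate 1 gave 74 of 9853 genes and 1 of 10 members. Each fit without a filter tested 19518 genes and 10 members. Filtered DESeq2, limma voom and the unadjusted threshold covered 7263 genes and 9 members. The median log2 fold change of the members tested, 2.39, was -1.12 after macrophage scaling, 2.05 to 2.88 under the other alternatives and 2.18 to 2.98 with each library left out.

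After macrophage scaling the log2 fold change turned negative for Hspa1b (-1.12), Dnajb1 (-1.83), Hsp90aa1 (-0.14), Hsp90ab1 (-0.86), Hspa5 (-2.45), Hspd1 (-1.34) and Hspe1 (-0.60), and the cause was not tested. With each library left out, Hspa1a ran from -1.10 to 0.48 and Hsph1 from -0.27 to 0.55, and Hsph1 was -0.11 in DESeq2 without a filter. In limma voom, Hspa8 was 5.42 against 3.79 in edgeR, and Hspe1 was 3.30 against 2.30. Of 150 alternative values for single members, 125 kept their direction and their side of the threshold, 13 passed it and 12 changed sign. The strict filter left 2 members, Hspa1b and Hspa5.

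The replicate numbers of the labels belong to different mice. With the replicate block 0 genes and 0 members were called, and the median of the members was 2.80. Deviations of same-numbered libraries correlated at -0.0026, 0.055 and -0.033, and not every library correlated best with its own number. Depth limits the members with few vehicle counts, which were 0 to 13 for Hspa1a, Hsph1, Hsp90ab1, Hspd1 and Hspe1, while Dnajb1, Hspa8 and Hsp90aa1 had 3, 4 and 7 in their lowest vehicle library.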
